A study of Saccharomyces cerevisiae with 10 samples.

Results

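The 10 genes described here encode enzymes of purine nucleotide synthesis in budding yeast, Saccharomyces cerevisiae: ADE4, ADE5,7, ADE8, ADE6, ADE2, ADE1, ADE13, ADE16, ADE17 and ADE12. They were taken by systematic open reading frame name (YMR300C, YGL234W, YDR408C, YGR061C, YOR128C, YAR015W, YLR359W, YLR028C, YMR120C and YNL220W, in the same order) from a table of 5983 rows, and all 10 had a value on all 10 arrays. The study followed a heat shock in strain DBY8778, taken as the wild type, and in a strain deleted for KIN82, a gene for a protein kinase. Both strains were sampled at 0, 5, 15, 30 and 60 min, and total RNA of each strain and time was hybridised once, against a reference RNA. The source of the reference, the temperature, the medium and its adenine content, the marker used for the deletion and the number of transformants are not stated in the labels. The titles of the DBY8778 arrays name a second heat shock, and 2 deletion arrays, those at 0 and 60 min, are titled as repeats, so the strains may have been sampled in separate time courses, and within the deletion the 0 and 60 min arrays may come from another course than the rest.

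Cells build purines stepwise on phosphoribosyl pyrophosphate (PRPP) until inosine monophosphate (IMP) is made, from which separate branches lead to AMP and to GTP. In yeast most ADE genes are activated by the transcription factors Bas1 and Pho2 when purines are short and are repressed when adenine is supplied, and the late intermediates SAICAR and AICAR promote the pairing of these factors. Many of these genes also respond to Gcn4, the activator of amino acid synthesis. ADE4 encodes the amidotransferase of the committing step, ADE5,7 a bifunctional enzyme of later steps, ADE8 a transformylase and ADE6 the amidotransferase that follows it. ADE2 encodes a carboxylase and ADE1 the SAICAR synthetase. ADE13 encodes adenylosuccinate lyase, which acts both before IMP and in the AMP branch. ADE16 and ADE17 are paralogues for the enzyme that closes the ring to IMP, and ADE12 encodes adenylosuccinate synthetase of the AMP branch.

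Values are log2 ratios of sample over reference, each array centred on its median, so that 0 is the ratio of the median gene. A ratio says nothing of the level of one gene against another. Neither the base of the logarithm nor which channel is the numerator was stated. Sample over reference is the likely direction, because 25 of 26 Hsf1-dependent chaperones in DBY8778 and 27 of 27 in the deletion had higher ratios at 15 min than at 0 min. A natural logarithm would enlarge all log2 values by one factor. Each array gave values for 5844 to 5949 genes, and the medians as deposited lay between -0.15 and 0.03. KIN82 was not analysed here, so the deletion was not checked. Tests came from limma with time and strain as terms over all genes tested, with Benjamini-Hochberg adjustment and calls at an adjusted p under 0.05. No strain and time has a second array, so noise between arrays and departures from additivity are not separated in the residual, and p-values rest on the assumption that times of 1 strain are independent samples.

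Before heat, most of the pathway stood higher in the deletion than in the wild type. At 0 min, 8 of 10 genes were at least 2-fold higher in the deletion, against 2.79% of the 5170 genes with all 10 values, and the median member differed by 1.21 on the log2 scale against 0.04 for all genes. This is the difference of 1 pair of arrays and has no replicate check, and the deletion array is one of those titled repeat. ADE17 differed most, by 2.87 or 7.32-fold, and had the largest deletion minus wild type difference of all 5170 genes at 0 min. ADE1 ranked 8 of 5170 with 1.73, ADE2 31 with 1.42 and ADE13 33 with 1.41. ADE4 (1.25), ADE5,7 (1.18), ADE6 (1.15) and ADE12 (1.08) followed. The exceptions were ADE16 at 0.04 and ADE8 at -0.36, so that 9 of 10 were higher by any amount, as were 54% of all genes. The 8 genes were the same without centring, after quantile normalization and after scaling to equal median absolute deviation.

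**Figure D1:**
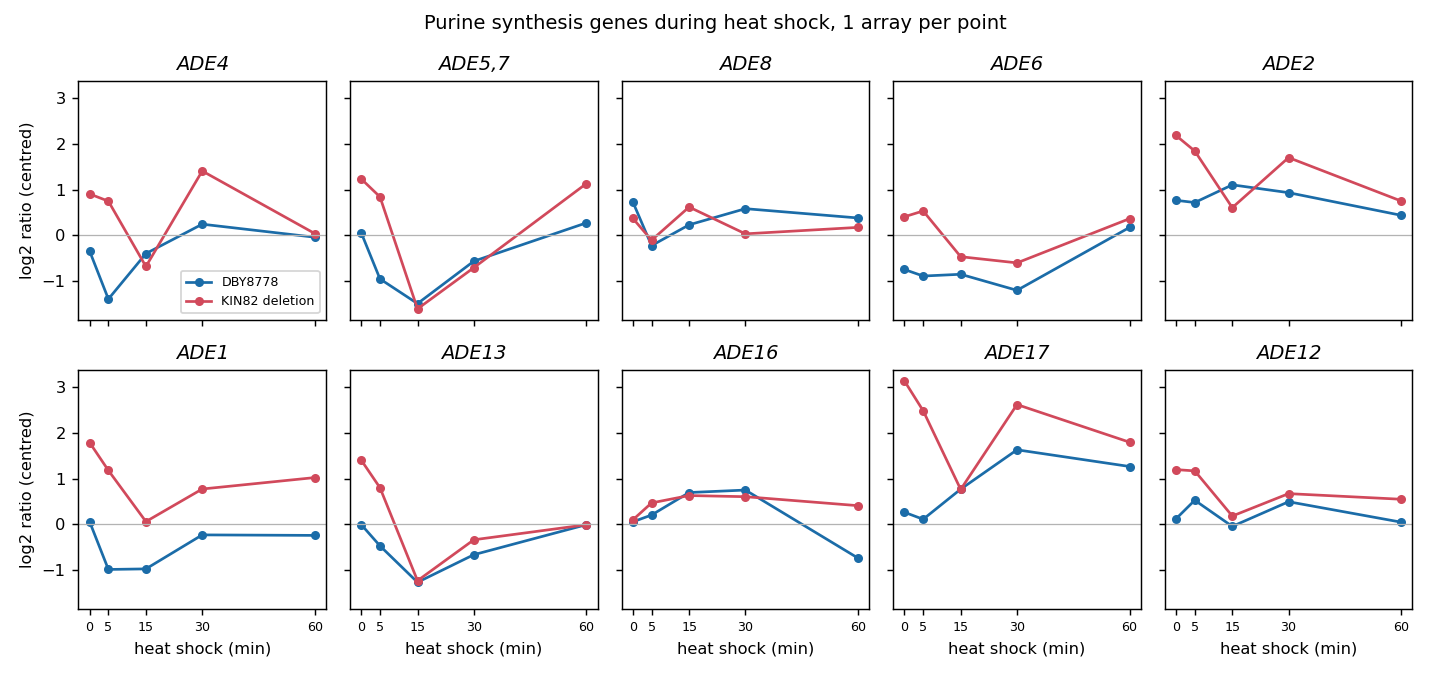
Centred log2 ratios over the reference (vertical axis) against minutes of heat shock (horizontal axis) for each of the 10 genes, in pathway order, with 1 array per point; blue is DBY8778 and red the KIN82 deletion. The deletion lies above the wild type at 0 min in 9 of 10 panels, and in ADE5,7, ADE13 and ADE17 the lines meet at 15 min.

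The difference was as wide at 5 min and had a median near 0 at 15 min. All 10 genes were higher in the deletion at 5 min and 7 of 10 by at least 2-fold (50.7% and 9.01% of all genes), with a median difference of 1.35. At 15 min, 5 of 10 were higher (52.5% of all genes) and the median difference was 0.01. Only ADE1 remained at least 2-fold higher at 15 min, by 1.03 (5.61% of all genes), and no member was after quantile normalization or scaling to equal median absolute deviation. At 30 min the median difference was 0.46 with ADE4 and ADE1 at least 2-fold higher (4.99% of all genes), and at 60 min it was 0.41 with ADE1 and ADE16 (2.55%). By any amount, 7 of 10 were higher at 30 min and 8 of 10 at 60 min, where the median difference over all genes was 0.0085 and 0.008. Over the 5 times the deletion was higher in 39 of 50 pairs of gene and time. These pairs share the same 10 arrays and are not 50 separate observations.

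**Figure D2:**
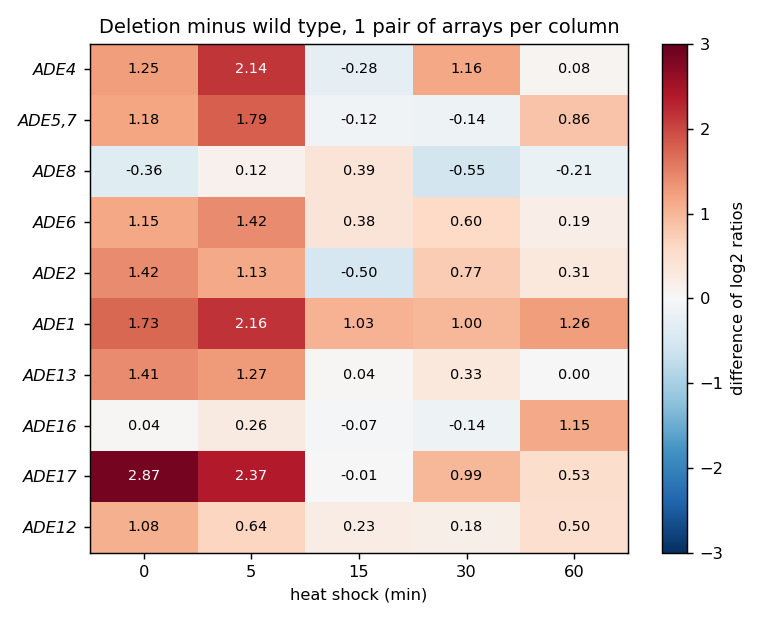
Deletion minus wild type difference of centred log2 ratios for each gene (rows) and time in min (columns), each cell from 1 pair of arrays, with red for higher in the deletion. The 0 and 5 min columns have medians of 1.21 and 1.35 and reach 2.87 in ADE17 at 0 min. The 15 min column lies between -0.50 and 1.03, and the 30 and 60 min columns reach 1.16 in ADE4 and 1.26 in ADE1.

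Over the 5 times together, ADE1, ADE17 and ADE6 were higher in the deletion and none of the 10 was called lower. These 3 of 10 stand against 6.6% of the 5744 genes tested that were called higher and 12% called in either direction.

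ADE1, the SAICAR synthetase, had log2 ratios of 0.06, -0.99, -0.97, -0.23 and -0.24 in DBY8778 at 0, 5, 15, 30 and 60 min, and of 1.79, 1.18, 0.06, 0.77 and 1.02 in the deletion. Every deletion array lay above every wild-type array, though the lowest of the former (0.061) and the highest of the latter (0.058) were nearly equal; 1.8% of all genes showed such a separation. The limma difference was 1.44 ± 0.21 (SE), or 2.71-fold, with an adjusted p of 0.0013. It was called in 19 of 20 alternatives, with limma adjusted p between 0.00012 and 0.175. The call was lost only when the time term was dropped from the model, a fit that called 1 of 5744 genes. In this comparison leaving out either array of a time gives the same fit, so such fits are repeated among the 20.

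ADE17, which makes IMP together with its paralogue ADE16, had ratios of 0.27, 0.11, 0.77, 1.63 and 1.26 in the wild type against 3.14, 2.48, 0.76, 2.62 and 1.80 in the deletion. The deletion was higher at 4 of 5 times and level with the wild type at 15 min, and the ranges overlapped. The difference was 1.35 ± 0.33 (limma adjusted p = 0.0188). Without either 0 min array it was 0.97 ± 0.31 (limma adjusted p = 0.064, range over alternatives 3.88e-06 to 0.223), and without either 30 min array 1.44 ± 0.39 (adjusted p = 0.0523). ADE17 is the single member among the 338 rows whose values carry at most 2 decimals, for an unknown reason.

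ADE16 had ratios of 0.06, 0.20, 0.70, 0.75 and -0.74 in the wild type against 0.10, 0.47, 0.63, 0.61 and 0.41 in the deletion. The strains lay within 0.26 of each other up to 30 min and apart by 1.15 at 60 min, where the wild-type array was low. Its strain difference of 0.25 ± 0.21 was not called (limma adjusted p = 0.474). The paralogues' profiles over the 10 arrays had a Pearson correlation of 0.10, a description over arrays that share times and strains. The labels do not say whether the probes separate these paralogues.

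ADE6 had ratios of -0.75, -0.89, -0.85, -1.20 and 0.18 in the wild type against 0.41, 0.53, -0.47, -0.60 and 0.37 in the deletion. It was higher in the deletion at all 5 times, as were ADE1 and ADE12 (13.3% of all genes), with overlapping ranges. The difference was 0.75 ± 0.21 (limma adjusted p = 0.0313), and the call was kept in 10 of 20 alternatives, with adjusted p between 0.0232 and 0.306 and values between 0.58 and 0.89. It was lost, among others, without either array at 0, 5 or 30 min.

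The remaining 6 genes, called neither way, were ADE4 (0.87 ± 0.28), ADE5,7 (0.71 ± 0.26), ADE2 (0.62 ± 0.24), ADE13 (0.61 ± 0.23), ADE12 (0.52 ± 0.19) and ADE8 (-0.12 ± 0.19), with limma adjusted p between 0.058 for ADE4 and 0.729 for ADE8. At an unadjusted p under 0.05, 8 of 10 members were higher, against 27.7% of all genes that passed in either direction. Without the wild-type or without the deletion array at 15 min, 6 members were called, ADE4, ADE5,7 and ADE2 besides the 3. Either of these fits called 539 of 5744 genes. Without either array at 0 min or at 30 min, or with the 5, 15 and 30 min pairs alone, ADE1 was the single call. Over all genes these fits called 429 of 5744, 249 of 5744 and 281 of 5706, and 1 of 10 members is near those shares. Strain and time course cannot be told apart in this design.

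**Figure D3:**
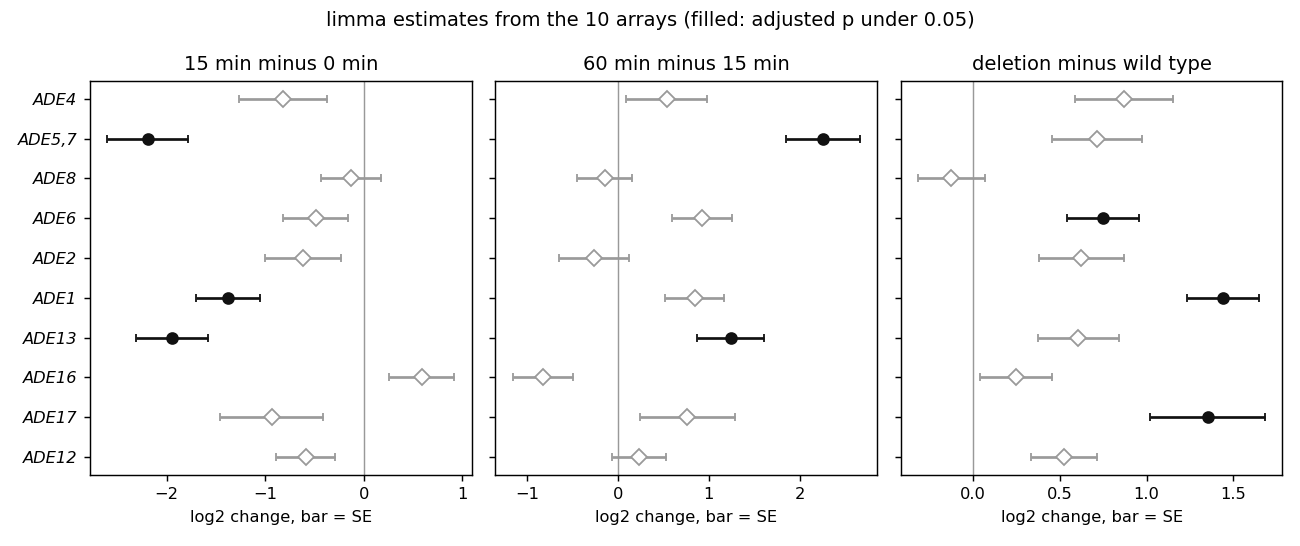
limma estimates (log2, horizontal axis) with SE bars for each gene (vertical axis) at 15 min minus 0 min, at 60 min minus 15 min and for deletion minus wild type over the 5 times; filled circles have an adjusted p under 0.05. ADE5,7, ADE1 and ADE13 are called lower at 15 min, ADE5,7 and ADE13 are called higher at 60 min than at 15 min, and ADE6, ADE1 and ADE17 are called higher in the deletion.

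With heat, ADE5,7, ADE13 and ADE1 fell at 15 min, and no member was called higher than at 0 min. At 15 min against 0 min these 3 of 10 were called lower and the median member changed by -0.72, against 14.1% of 5742 genes called lower, 23.6% called in either direction and a median of 0.05 over all genes.

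ADE5,7 had ratios of 0.06, -0.95, -1.49, -0.56 and 0.27 in DBY8778 against 1.24, 0.84, -1.61, -0.71 and 1.13 in the deletion. Both strains were lowest at 15 min and near their starting value at 60 min. The change at 15 min was -2.20 ± 0.41, or 4.58-fold lower (limma adjusted p = 0.000898), and the rise from 15 to 60 min was 2.25 ± 0.41 (limma adjusted p = 0.00114). Both calls were kept in all 18 alternatives, with values from -2.71 to -1.68 and from 1.73 to 2.77.

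ADE13 had ratios of 0.00, -0.47, -1.27, -0.66 and -0.01 in DBY8778 against 1.41, 0.80, -1.23, -0.34 and -0.01 in the deletion. It was lowest at 15 min in both strains, and at 60 min it was back at the unheated value in the wild type but 1.41 below it in the deletion. The change at 15 min was -1.95 ± 0.37 (limma adjusted p = 0.000997), kept in all 18 alternatives, and that at 30 min -1.20 ± 0.37 (limma adjusted p = 0.0434), kept in 11 of them with adjusted p between 0.0137 and 0.467. The call at 30 min was lost without the wild-type array at 30 or 60 min or the deletion array at 0, 30 or 60 min, and without the deletion array at 0 min the change was -0.70. The rise from 15 to 60 min was 1.24 ± 0.37 (limma adjusted p = 0.026), kept in 12 of 18 alternatives, with adjusted p between 0.00774 and 0.271, and lost without the wild-type array at 60 min or the deletion array at 15 or 60 min.

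ADE1 changed by -1.38 ± 0.33 at 15 min (limma adjusted p = 0.00548). Against its own 0 min array the wild type was at -1.04 at 5 min and -1.03 at 15 min, and the deletion at -0.61 and -1.73. The call was lost without the deletion array at 0 min (-1.20 ± 0.44, limma adjusted p = 0.0789) or at 15 min (-1.13 ± 0.40, adjusted p = 0.0776) and without both arrays titled repeat (-1.21 ± 0.47, adjusted p = 0.104), with a range over alternatives from 0.00102 to 0.104.

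ADE4, for the committing step, had ratios of -0.34, -1.39, -0.40, 0.24 and -0.04 in the wild type against 0.91, 0.75, -0.68, 1.41 and 0.04 in the deletion. Its low point came at 5 min in the wild type and at 15 min in the deletion, and both strains were highest at 30 min. Its change at 15 min was -0.82 ± 0.45 (limma adjusted p = 0.208). Without the wild-type array at 15 min it was -1.54 and was called (limma adjusted p = 0.0392, range over alternatives 0.0392 to 0.939), and without the deletion array at 15 min it was -0.10.

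ADE2, whose loss is known for the red colony colour of yeast, had ratios of 0.77, 0.72, 1.10, 0.93 and 0.44 in the wild type against 2.18, 1.84, 0.61, 1.70 and 0.75 in the deletion. At 15 min the wild type had its highest value and the deletion its lowest. The change at 15 min was -0.62 ± 0.38 (limma adjusted p = 0.272).

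ADE12, of the AMP branch, had ratios of 0.12, 0.53, -0.04, 0.50 and 0.05 in the wild type against 1.20, 1.17, 0.18, 0.67 and 0.55 in the deletion. It was lowest at 15 min in both strains, with a change of -0.59 ± 0.30 (limma adjusted p = 0.179). ADE8 had ratios of 0.73, -0.22, 0.23, 0.58 and 0.38 in the wild type against 0.37, -0.11, 0.62, 0.03 and 0.18 in the deletion. It was lowest at 5 min in both strains, at -0.72 ± 0.30 against 0 min (limma adjusted p = 0.171). ADE16 had the one positive estimate at 15 min, 0.59 ± 0.33 (limma adjusted p = 0.225). ADE17 (-0.93 ± 0.52) and ADE6 (-0.49 ± 0.33) were not called at 15 min either, with limma adjusted p of 0.221 and 0.318.

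Fewer members were called at the other times. At 5 min limma called 0 of 10 members (8.52% of all genes), and the median change was -0.47. At an unadjusted p under 0.05 it was 2 of 10 (22.6% of all genes). Without the deletion array at 5 min, which left a single array at that time, ADE4, ADE5,7 and ADE1 were called lower. Calls over all genes rose in that fit as well. At 30 min ADE13 was called (12.5% of all genes), with ADE5,7 close to the threshold at -1.28 ± 0.41 (limma adjusted p = 0.0527). At 60 min limma called 0 of 10 (1.39% of all genes), with a median of -0.28, and 1 of 10 passed an unadjusted p under 0.05 (15.8% of all genes). From 15 to 60 min 2 of 10 rose (12.1% of all genes called higher, 20.6% in either direction). Over the whole time course the F test called ADE5,7, ADE13 and ADE1 (23.3% of all genes), with limma adjusted p of 0.00264, 0.00818 and 0.0498. ADE5,7 kept this call in 18 of 18 alternatives, ADE13 in 16 and ADE1 in 7.

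When the 4 heated times were averaged and set against 0 min, ADE13 (-1.10 ± 0.29), ADE5,7 (-1.03 ± 0.32) and ADE1 (-0.85 ± 0.26) were called lower (10.3% of all genes called lower, 16.1% in either direction), with limma adjusted p of 0.0159, 0.0407 and 0.0343. These averages depended on the unheated arrays. Without the deletion array at 0 min, which left a single unheated array, the calls were lost. ADE13 was then at -0.60, ADE5,7 at -0.74 and ADE1 at -0.67. Calls over all genes fell as well, and fell further without the wild-type array at 0 min. ADE13 was the single call without the wild-type array at 0 or 60 min or the deletion array at 15, 30 or 60 min. Without those heated arrays 761 to 916 genes were called over all genes, beside 921 with all arrays.

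Each strain was also read against its own unheated array, with no test. In the deletion 7 of 10 members were at least 2-fold below 0 min at 15 min (15.2% of all genes), with a median change of -1.58. In the wild type 3 of 10 were at least 2-fold lower at 15 min (13% of all genes), with a median change of -0.14. ADE17 showed this most, with a mean change over the heated times of 0.68 in the wild type but -1.22 without KIN82. The strain by heat term for ADE17 was -1.90 ± 0.68 and did not pass (limma adjusted p = 0.999, unadjusted p = 0.0134), and for ADE13 and ADE2 it was -1.002 ± 0.56 and -0.99 ± 0.58. limma called 0 of 10 members and 0 of 5744 genes for this term, with 1 member and 130 genes (2.26%) at an unadjusted p under 0.05. The unheated level in this term comes from a single array per strain, the same arrays that give the unheated strain difference.

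Genes on the neighbouring pathways were set beside the 10 members. ADE3, GCV1, HIS2 and ADK2 of these lists lacked a value on a 0 min array and were not tested. For the PRPP synthetases, which supply the pathway's starting compound, 4 of 5 were lower at 15 min, against 14.1% of all genes, with a list median of -2.12. They were PRS1 (-2.46 ± 0.34), PRS3 (-2.29 ± 0.30), PRS4 (-2.12 ± 0.33) and PRS5 (-1.29 ± 0.30). Of 5 genes of the GTP branch 4 were lower at 15 min with a median of -2.66, led by GUA1, GMP synthetase, at -4.18 ± 0.30, and the IMP dehydrogenases IMD4 (-3.32 ± 0.37), IMD2 (-2.66 ± 0.29) and IMD3 (-2.62 ± 0.31). The IMD genes are closely related paralogues and their probes may cross-hybridise. The limma adjusted p of these 8 genes lay between 1.09e-06 for GUA1 and 0.00509 for PRS5. From 15 to 60 min 3 of 5 PRPP synthetases and 4 of 5 GTP branch genes rose, against 12.1% of all genes, with list medians of 1.98 and 1.93. After quantile normalization 1 of 5 in each list was called higher, with medians of 0.96 and 0.98. Over all 5742 genes 146 were then called higher, beside 692 in the main fit.

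Of 15 tested genes of purine salvage and interconversion, 9 were lower and 1 was higher at 15 min, with a list median of -0.99. Over all genes 14.1% were called lower and 23.6% in either direction. After quantile normalization 4 of the 15 were lower and 1 was higher. Over all 5742 genes 469 were then called lower, beside 808 in the main fit. The largest falls were in AAH1, adenine deaminase (-3.08 ± 0.34), HPT1, hypoxanthine-guanine phosphoribosyltransferase (-2.98 ± 0.35), FCY2, the purine and cytosine permease (-2.56 ± 0.40), and APT1, adenine phosphoribosyltransferase (-2.37 ± 0.31), and ISN1, which hydrolyses IMP, was higher by 0.98 ± 0.29. The limma adjusted p of these 5 lay between 1.42e-05 for AAH1 and 0.0228 for ISN1.

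In one-carbon and glycine metabolism, which supplies the formyl groups for the ring, 1 of 7 tested genes was lower at 15 min and 1 higher, a share near the 23.6% of all genes called in either direction, and the median was -0.82. MIS1, the mitochondrial C1-tetrahydrofolate synthase, was at -3.86 ± 0.38 and GCV3, a subunit of glycine decarboxylase, at 1.40 ± 0.29 (limma adjusted p = 4.91e-06 and 0.002). Of 6 tested histidine genes, 1 was lower at 15 min, a share near the 14.1% of all genes called lower. It was HIS1, ATP phosphoribosyltransferase (-1.47 ± 0.40, limma adjusted p = 0.013), and the list median was -0.36.

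Several of these genes were called higher in the deletion, and none of those tested was called lower. In the strain comparison, in which 6.6% of all genes were called higher, the calls were 2 of 5 in the GTP branch (IMD4 at 0.81 ± 0.23, GUA1 at 0.79 ± 0.19), 0 of 5 PRPP synthetases, 4 of 15 in salvage and interconversion, 2 of 7 in one-carbon and glycine metabolism and 1 of 6 in histidine synthesis. The salvage genes were HPT1 (0.93 ± 0.22), MEU1 (0.71 ± 0.20), ADK1 (0.69 ± 0.19) and APT2 (0.63 ± 0.18). MIS1 was higher by 1.28 ± 0.24, SHM2, the cytosolic serine hydroxymethyltransferase, by 1.10 ± 0.31 and HIS1 by 0.97 ± 0.25. The limma adjusted p of these 9 genes lay between 0.00565 for MIS1 and 0.0394 for APT2. Other one-carbon and glycine genes had lower values in the deletion. GCV2, not called, was higher in the deletion at 0 min but lower at all 4 heated times, at 0.79 against 2.75 in the wild type at 30 min. ADE3, not tested, was lower in the deletion at 15, 30 and 60 min, at -0.40 against 0.94 at 15 min. List medians were 0.52 for the GTP branch, 0.30 for PRPP supply, 0.17 for salvage, 0.56 for one-carbon and glycine genes and 0.21 for histidine genes, beside 0.67 for the 10 members and 0.01 for all genes. After quantile normalization 0 of 5 GTP branch genes and 1 of 15 salvage genes were called. Over all 5744 genes 219 were then called higher, beside 379 in the main fit.

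**Figure D4:**
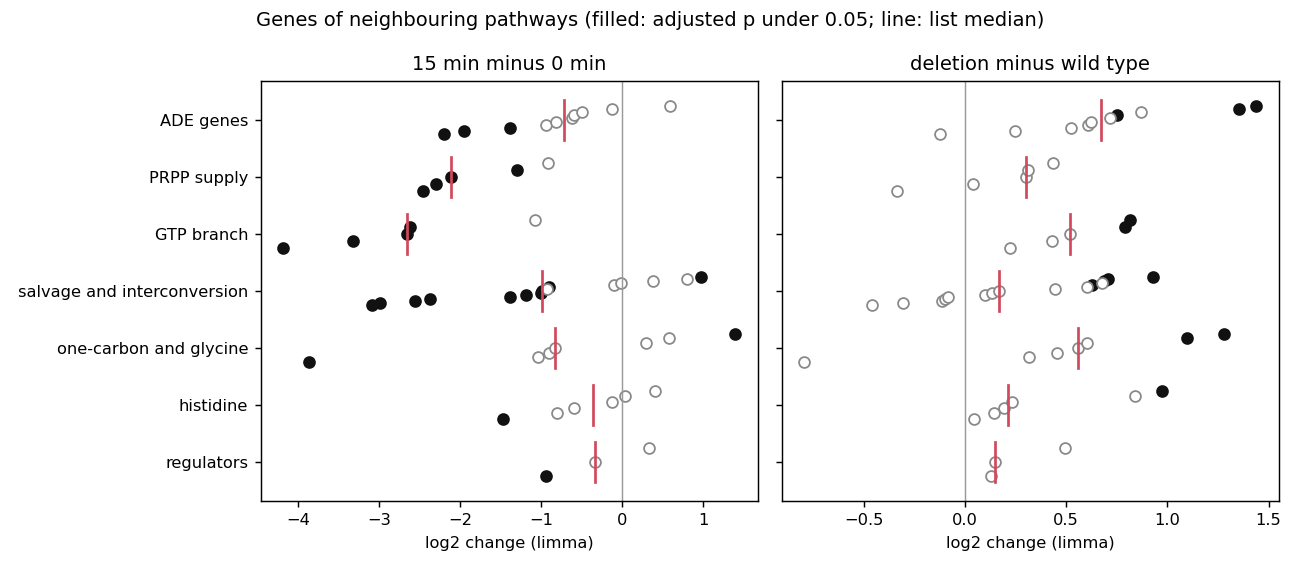
limma log2 change at 15 min minus 0 min and deletion minus wild type (horizontal axes) for every tested gene of 7 lists (rows); filled points have an adjusted p under 0.05, and the red line is the list median. PRPP supply and GTP branch genes have medians of -2.12 and -2.66 at 15 min against -0.72 for the 10 ADE genes, and the ADE genes have the highest median in the strain comparison, 0.67.

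Of the regulators' transcripts, GCN4 was called at 15 min and no other call was made at that time or between the strains. BAS1 changed by -0.34 ± 0.31 and PHO2 by 0.33 ± 0.34 at 15 min, and neither was called (limma adjusted p = 0.493 and 0.532). GCN4 was at -0.94 ± 0.32 at 15 min (limma adjusted p = 0.0464). In the strain comparison BAS1 was at 0.15 ± 0.20, PHO2 at 0.13 ± 0.21 and GCN4 at 0.49 ± 0.20, with limma adjusted p of 0.675, 0.749 and 0.128.

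Among themselves the members were not uniform. Over the 10 arrays, each gene's profile was set against the mean profile of the other 9. Pearson's correlation was 0.94 for ADE1, 0.89 for ADE17, 0.82 for ADE12, 0.81 for ADE13, 0.77 for ADE4, 0.75 for ADE2, 0.72 for ADE5,7 and 0.67 for ADE6, against -0.12 for ADE16 and -0.20 for ADE8. The arrays share times and strains, so these are descriptions. Outside the pathway, the 5 genes whose profile was most like the mean of the members over the 10 arrays were ALR1, a magnesium transporter (0.96), FRS1, a subunit of phenylalanyl-tRNA synthetase (0.95), THR4, threonine synthase (0.94), YGR054W (0.93) and LEU9, an isopropylmalate synthase (0.93). ALR1 had ratios of -0.95, -2.01, -1.92, -1.71 and -0.995 in the wild type against 0.59, -0.08, -1.61, -0.33 and -0.42 in the deletion. Like the mean of the members, it was higher in the deletion at all 5 times and lowest in that strain at 15 min.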

How the data were processed

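The authors deposited a table of log ratios of the 2 channels for 10 2-colour arrays, read here as log2 values. The labels name no scanner, dyes, background correction, normalization, filters or genome build, so no coordinates are printed. Of 5983 rows, 5484 were named by matching locus tags to RefSeq (R64).

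Each array was centred on its median. The 5744 genes with both 0 min values and at least 8 of 10 arrays entered lmFit and eBayes of limma 3.58.1 (R 4.3.3) with strain and a 5-level time factor as terms (4 residual degrees of freedom; the prior added 11). A strain by heat term left 3. All p-values were adjusted by Benjamini-Hochberg over the genes tested, and changes are log2 ± SE of the fit. The scripts were checked on simulated data.

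The 10 members were given by annotation. The members, the neighbouring lists and the tests were chosen with earlier results of these data known. From each list up to 4 called genes with the largest change were named, and all regulators. The alternatives were no centring, quantile and median absolute deviation scaling, gene filters, robust and trended eBayes, and arrays or times left out. Leaving out either array of a time gives the same fit for the strain comparison and for changes between other times. Counts of alternatives therefore repeat such fits. Promoters were to be searched for motifs, which was not done, as no sequence was used here. The number of arrays limits precision, and spot intensities were not used here.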

Additional observations from a re-analysis of the deposited data

How the results depend on the processing

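Leaving out each array in turn moved the number of the 10 members called to between 0 and 3 at 5 min, 2 and 6 at 15 min, 0 and 2 at 30 min, 1 and 4 from 15 to 60 min, 0 and 3 in the heat average, 1 and 5 over the time course and 1 and 6 in the strain comparison, while it was 0 at 60 min throughout. The highest number at 15 min came without the wild-type array at 15 min, a fit with fewer calls over all genes than the main fit. That from 15 to 60 min came without either array at 5 min, where calls over all genes rose. Calls over all genes moved with the other arrays left out as well, in the strain comparison to between 249 and 539 of 5744 genes from 688. After quantile normalization 0 members were called at 30 min, 1 from 15 to 60 min and 1 over the time course. Over all genes 646, 254 and 761 were called in these comparisons, beside 715, 1184 and 1336 in the main fit. Scaling to equal median absolute deviation gave 2 calls at 30 min, 1 from 15 to 60 min and 5 in the strain comparison. Over all genes it gave 727, 595 and 782. Restriction to complete genes and a trend in eBayes each gave 2 calls at 30 min, with 691 and 679 calls over all genes. Without both arrays titled repeat there were 0 calls at 30 min and 0 in the heat average. Calls over all genes were fewer without these arrays too. The strain comparison gave 1 call with the 5, 15 and 30 min pairs (281 of 5706 genes tested) and 0 with no time term (1 of 5744). The cause of these changes was not tested beyond the loss of arrays itself.

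Uncalled estimates changed sign in ADE8 at 15 min (-0.45 to 0.19 over the arrays left out), ADE2 at 15 min (-1.32 to 0.082, the latter without the deletion array at 15 min) and ADE17 at 15 min (-1.88 to 0.016, the latter without the deletion array at 0 min). The heat average ranged from -0.45 to 0.054 in ADE6, -0.96 to 0.032 in ADE2, -1.22 to 0.68 in ADE17 and -0.55 to 0.14 in ADE12, the upper ends coming without the deletion array at 0 min and, with equal values, without both arrays titled repeat. It was 0.043 in ADE6 after quantile normalization. In alternatives chosen after seeing the data, members at least 2-fold higher in the deletion numbered 0 at 15 min after quantile normalization or equal median absolute deviation, 1 at 30 min after the latter and 4 at 30 min if the values are natural logarithms, and 4 at 60 min after quantile normalization. At 0 min they numbered 8 under all 4 of these alternatives, with a median difference between 1.26 and 1.75. The strain by heat term could not be fitted without either 0 min array. The strain comparison pairs the strains by time, and leaving out that pairing is the fit with no time term above. The labels number no replicates, so no other block was fitted.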
